A study of Drosophila melanogaster with 3 samples.

Results

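The cytosolic ribosomal protein genes encode the protein parts of the ribosome that works in the cytoplasm. In the embryos studied here, 65 of 92 of them (70.7%) carried a peak of the GFP-tagged forkhead factor fd64A, against 16.9% of all 13945 protein-coding genes. The members were all protein-coding genes on the 6 chromosome arms whose Ensembl symbol starts with RpL, RpS or RpLP followed by a digit. Of these 92 genes, 54 were counted to the large subunit, with the stalk proteins, and 38 to the small subunit. The subunit was read from the symbol alone, also for related genes whose symbols end in -like. Each gene was searched for peak summits from 2000 bp upstream of its most upstream annotated start site to its end, a rule that uses names and positions and no peak value.

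The data are chromatin immunoprecipitation with sequencing (ChIP-seq) of 3 biological replicates of 1 group. Per the labels, the animals were whole Drosophila melanogaster embryos of both sexes, 8 to 14 hours old. They came from 1 transgenic strain that stably expresses fd64A, which the labels also name FoxL1, with GFP at its C terminus. There is no second genotype, treatment or time, and no untagged embryo is among the samples, so the other genes of the same lists are the only comparison. Cells of the whole embryo were pooled, and a peak cannot be assigned to a cell type. A free-text label calls each sample an input control, while its assay and antibody labels mark an immunoprecipitation, and it was read as the second. Nothing says whether the replicates came from separate parents, so a p-value over them measures only the spread between these 3 samples.

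The peak lists are those the authors deposited, called against the same input for every replicate. The relaxed list of each replicate, and that of the pooled replicates, holds 30000 peaks ranked here by the deposited signal. The list that passed the irreproducible discovery rate procedure (IDR, meant to keep peaks that rank alike between replicates) holds 2919 peaks. At each ribosomal protein gene with an IDR summit, the IDR rank and signal equalled the pooled ones, so both are 1 measurement. An IDR summit alone does not show that a gene ranked alike in the replicates, whose ranks are given separately below. Rank 1 is the strongest peak of a list. The 2919 strongest peaks of a replicate are called its leading peaks, so that each list compared has the same length. Peaks with a q-value under 0.05 numbered 4964, 3017 and 1598 in replicates 1, 2 and 3. The number of reads behind a peak is unknown, and signal was never compared between lists.

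Ribosomes join the large and the small subunit, and each ribosomal protein is needed in a fixed ratio to the others. In Drosophila, loss of one copy of many of these genes gives the Minute phenotype of delayed development and thin bristles. Their transcripts commonly start at a TCT initiator, a run of pyrimidines that takes the place of the usual initiator at highly active translation genes. Forkhead proteins bind DNA with a winged helix, and their best known target word is GTAAACA with close variants.

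Sequences around the start sites of the strongest peak carriers are given first, because nearly all peaks of these genes lay there. Each line holds 30 bases of the reference genome (release 6, dm6) on the gene's own strand, with an annotated start site at base 13. Capitals mark the TCT initiator, searched as a pyrimidine, then CTTT, then 2 pyrimidines, on the gene's own strand only, with its C within 10 bp of an annotated start site.
RpS27 (chr3R:25247455-25247484, minus strand): cgatttaccccacttCCTTTTCcgtgttag
RpL14 (chr3L:8600994-8601023, plus strand): tcaaaaaagtTCTTTCCttctctttctttc
RpS4 (chr3L:13041789-13041818, plus strand): cgcccgcaaatctgCCTTTTCcttttcctg
RpL13A (chr3R:5624462-5624491, plus strand): aacgcaacttccgcctTCTTTCCgtgcggt
RpL13 (chr2L:9967318-9967347, plus strand): tggttgcgatttCCTTTTTaattcgttgtt
RpS25 (chr3R:11216270-11216299, minus strand): cgtttccgccctccaTCTTTCTgcattgac
The same word stood at the start of RpL21, which had no peak in any list, and was absent at RpS28-like, which had none either.
RpL21 (chr2L:22247816-22247845, minus strand): attcaagtagccaTCTTTCTttcttttctc
RpS28-like (chr2L:9436792-9436821, plus strand): catttgatattgtaagttacatacccctaa

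By subunit, 40 of 54 large-subunit genes (74.1%) and 25 of 38 small-subunit genes (65.8%) carried an IDR summit. With the summit required to lie within 500 bp of the gene's own start site, 64 of the 92 genes (69.6%) carried one, against 9.34% of all protein-coding genes. For RpS28a that summit lay past the end of the gene, outside the window used elsewhere, so it is counted among the genes without an IDR summit below. The ribosomal protein genes are shorter than most, with a median length of 1315 bp against 2166 bp over all genes, and the search window grows with length.

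The share repeated in each replicate. Replicate 1 had a leading peak at 60 of the 92 genes (65.2%), against 16.9% of all genes. Replicate 2 had one at 64 (69.6%), against 17.2%, and replicate 3 at 59 (64.1%), against 16.2%. The mean over replicates was 66.3% ± 2.88 for the ribosomal protein genes and 16.4% ± 0.47 for the other genes (SD, n = 3). The difference of 49.9 ± 2.49 percentage points was positive in 3 of 3 replicates. An exact two-sided sign-flip test gave p = 0.25, the smallest that 3 replicates allow.

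**Figure D1:**
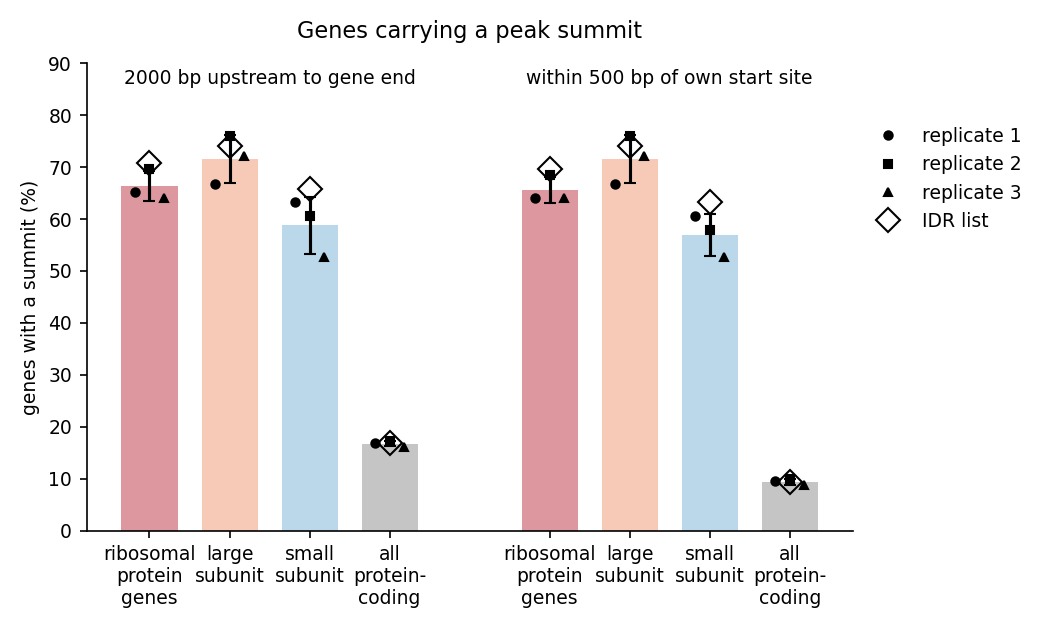
Share of genes (%) with a peak summit in the IDR list (open diamonds) and among the 2919 leading peaks of each replicate (filled symbols), for ribosomal protein genes, each subunit and all protein-coding genes. The left set counts summits from 2000 bp upstream to the gene end and the right set those within 500 bp of an own start site; the ribosomal protein genes sit at 64.1 to 70.7% on the left, all genes at 16.2 to 17.2%.

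The same genes recurred from replicate to replicate. A leading peak stood at 51 of the 92 genes in all 3 replicates, against 11.2% of all protein-coding genes. Of the 65 genes with an IDR summit, 51 had a leading peak in 3 replicates, 9 in 2 and 5 in 1. All 51 ranked at 1414 or stronger in the IDR list, and the other 14 began at rank 1452. Of the 27 genes without an IDR summit, 22 had a leading peak in no replicate, 3 in 1 and 2 in 2. Large-subunit genes led in 66.7%, 75.9% and 72.2% of cases in replicates 1, 2 and 3, and small-subunit genes in 63.2%, 60.5% and 52.6%. The large subunit was higher in each replicate, by a margin that ran from a few points in replicate 1 to its widest in replicate 3.

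The peaks of ribosomal protein genes were strong within the list. Their strongest IDR summits had a median rank of 618 (quartiles 267 and 1305), against 1243 for the 2297 other genes with an IDR summit. The strongest 0.25 of the list held 36 of the 65 (55.4%), against 32.9% of the other genes. Only 2 of the 65 ranked within the first 100, in a list of which 2.54% of all summits fell in ribosomal protein gene windows.

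Both of those genes led their subunit. RpS27 (FBgn0039300), which encodes a small-subunit protein, had the strongest summit, at IDR rank 70 in a peak at chr3R:25247348-25247665 with a signal of 1039.9, the authors' own value. It ranked 123, 74 and 28 in replicates 1, 2 and 3, with the summit 16 bp upstream of the start site in the IDR list. RpL7 (FBgn0005593), a large-subunit gene, followed at rank 81 in a peak at chr2L:10200906-10201173 with a signal of 975.7. It ranked 211, 77 and 34, with the summit 44 bp upstream of its own start site and 82 bp from that of Ripalpha. Both genes were among the leading peaks of every replicate by a wide margin.

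The next of the large subunit included RpL14, RpL13A and RpL13. RpL14 (FBgn0017579; chr3L:8600860-8601144) stood at IDR rank 134 and ranked 185, 107 and 84 in the replicates, with its summit 18 bp upstream of the start site. RpL13A (FBgn0037351; chr3R:5624305-5624567) stood at 141 and ranked 239, 207 and 53, with its summit 50 bp upstream. Of the 12 strongest genes, 11 had their summit within 50 bp of the own start site. RpL13 (FBgn0011272; chr2L:9967189-9967414) stood at 174 and ranked 155, 317 and 138. Its summit lay 4 bp downstream of its own start site and 105 bp from that of Dref, which encodes the factor that binds the DNA replication-related element.

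In the small subunit the next were RpS4, RpS10b and RpS25. RpS4 (FBgn0011284; chr3L:13041666-13041976) stood at IDR rank 135 and ranked 246, 125 and 81, with its summit 23 bp downstream of the start site. RpS10b (FBgn0285947; chrX:19597895-19598156) stood at 152 and ranked 162, 339 and 120, with its summit 24 bp upstream. RpS25 (FBgn0086472; chr3R:11216241-11216459) stood at 179 and ranked 259, 193 and 141, with its summit 29 bp upstream. These genes ranked strongest in replicate 3, as did 11 of the 12 strongest genes.

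The last of the 12 were RpL24, RpL30 and RpLP0, the base of the ribosomal stalk. RpL24 (FBgn0032518; chr2L:13394990-13395233) stood at IDR rank 195 and ranked 208, 178 and 233, with its summit 13 bp downstream of the start site. RpL30 (FBgn0086710; chr2L:19009131-19009349) stood at 199 and ranked 220, 411 and 129, with its summit 13 bp upstream. RpLP0 (FBgn0000100; chr3L:22075953-22076174) stood at 238 and ranked 281, 423 and 159, with its summit 10 bp upstream. None of the 12 left the leading peaks in any replicate, and their IDR signal was 659 or more.

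The first 500 ranks of the IDR list held 28 of the 65 genes. Beside the 12 strongest, these were RpL3, RpL8, RpL11, RpL19, RpL23A, RpL28, RpL31, RpL32, RpL34a, RpL34b and RpL41 of the large subunit, and RpS5a, RpS16, RpS18, RpS19a and RpS28b of the small one. Ranks from 501 to 1459 held 24 genes. These were RpL4, RpL7A, RpL17, RpL18, RpL22, RpL23, RpL27, RpL27A, RpL35, RpL35A, RpL36, RpL36A, RpL37A, RpL39 and the stalk gene RpLP1, with RpS7, RpS12, RpS15, RpS15Aa, RpS19b, RpS21, RpS23, RpS27A and RpS29. RpS27A encodes a ribosomal protein fused to ubiquitin. The 13 genes of the weaker ranks included RpL10Ab, RpL12, RpL26, RpL37-1, RpLP2, RpLP0-like, RpS6, RpS14a, RpS14b, RpS20 and RpS26.

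Near the end of the list stood RpS14a and RpS26, both of the small subunit. RpS14a had an IDR signal of 204.3 (rank 2573) and ranked 1391, 2952 and 4202 in the replicates. RpS26 had 197.9 (rank 2716) and ranked 2269, 3715 and 2947. Both were among the leading peaks of replicate 1 alone.

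Order among the ribosomal protein genes was similar between replicates. Over the 79 genes with a relaxed summit in every replicate, Spearman's rho of the ranks was 0.878 between replicates 1 and 2, 0.905 between 1 and 3, and 0.903 between 2 and 3. These are descriptions across genes, in lists called against 1 shared input, and genes are not independent replicates. The 65 genes had median ranks of 734, 586 and 527 in replicates 1, 2 and 3. Replicate 3 gave the strongest rank to 37 of them, replicate 2 to 21 and replicate 1 to 7. The ratio of the weakest to the strongest replicate rank had a median of 2.24. It was widest for RpLP2, a stalk protein gene, which ranked 5747 in replicate 1 but 795 and 1206 in replicates 2 and 3 (ratio 7.23). RpS20 ranked 3412, 6661 and 988 (ratio 6.74). RpL23A ranked 722, 218 and 116 (ratio 6.22), and so led in every replicate in spite of the spread.

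**Figure D2:**
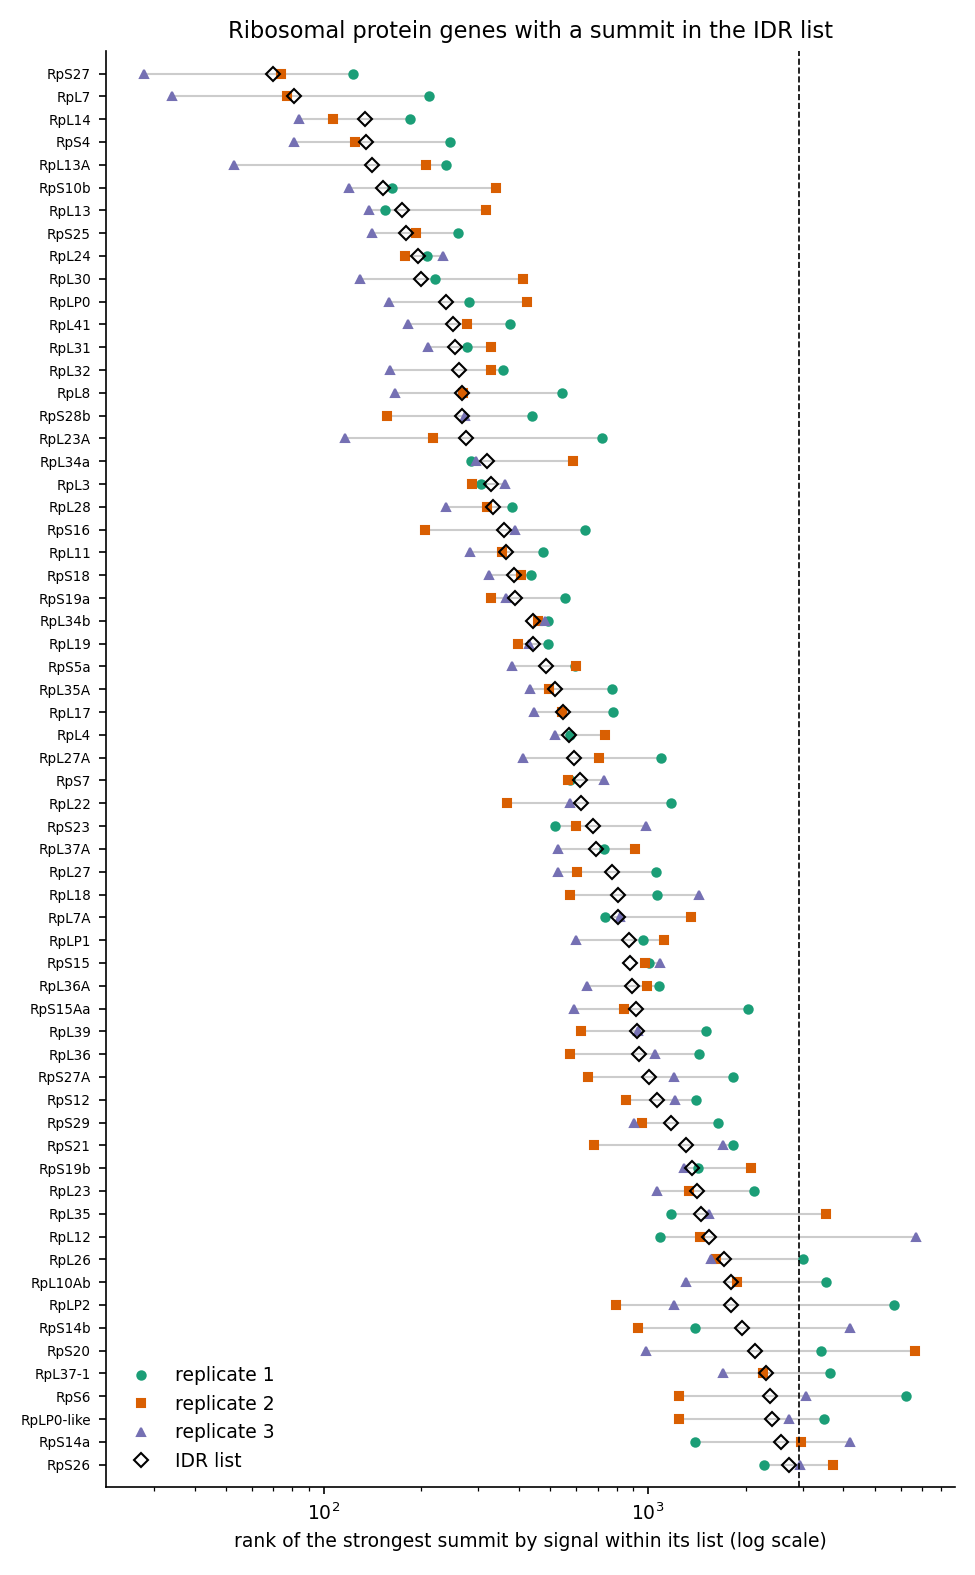
Rank of the strongest summit of 62 ribosomal protein genes with an IDR summit, by signal within each list (log scale, strong to the left), for the IDR list (open diamonds) and replicates 1 to 3 (filled symbols), with genes ordered by IDR rank. The dashed line marks rank 2919; the replicate symbols of 50 of the 62 genes all lie left of it.

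Summits sat on the start sites of these genes. The strongest IDR summit had a median position of −5 bp from the nearest own start site (quartiles −29 and 15 bp, negative being upstream). The median absolute distance was 21 bp for the 65 ribosomal protein genes and 612 bp for the 2297 other genes. Within 50 bp lay 48 of the 65 (73.8%), against 7.01% of the other genes, and within 100 bp 90.8%, against 13.8%. RpL7A, a large-subunit gene, had its summit at 0 bp. The median was −4 bp for the large subunit and −6 bp for the small one.

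Promoter summits of other genes lay farther upstream. Restricted to summits within 500 bp of an own start site, the median was −3 bp for 63 ribosomal protein genes and −124 bp for 1054 other genes. Of these summits 76.2% lay within 50 bp of the start site in ribosomal protein genes, against 15.3% in other genes. Among leading peaks of the replicates this share was 76.1% ± 2.64 for ribosomal protein genes and 16.1% ± 3.01 for other genes (SD, n = 3). The difference was 60 ± 5.57 percentage points and positive in 3 of 3 replicates (exact two-sided sign-flip p = 0.25, the smallest possible). Replicate summits of the same gene spread over a median of 33 bp, counted for the 59 genes with a promoter summit in each replicate, and over at most 529 bp.

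**Figure D3:**
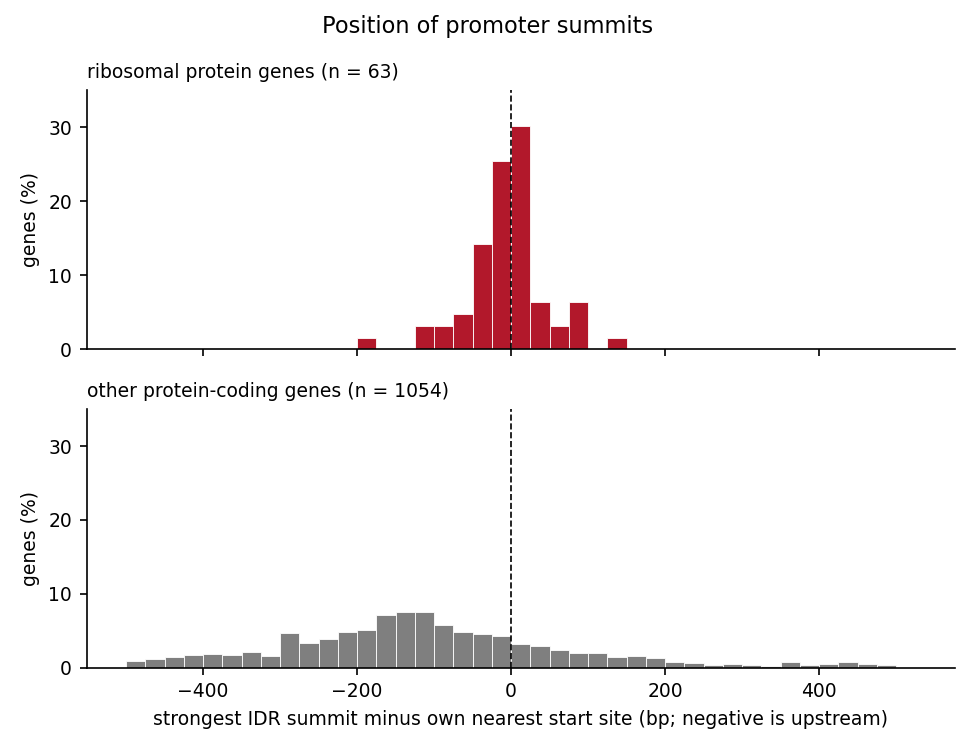
Position of the strongest IDR summit relative to the nearest own start site (x axis in bp, negative upstream; y axis, percent of genes per 25 bp bin) for 63 ribosomal protein genes (top) and 1054 other genes (bottom) with a summit within 500 bp. The ribosomal protein genes centre on the start site with a median of −3 bp, and the other genes at −124 bp.

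Few of the strongest summits lay over 500 bp from an own start site, since 63 of the 65 lay within that distance. RpS19b had its summit 920 bp upstream (IDR rank 1366), 538 bp from the start site of CG5854, with replicate ranks of 1428, 2072 and 1294. For 61 of the 65 genes the gene's own start site was the nearest. The exceptions included RpS19b and RpLP0-like, whose summit lay 20 bp from the start site of 14-3-3zeta. In 29 of the 65 cases another gene's start site also lay within 500 bp of the summit. Among promoter summits that share was 44.4% for ribosomal protein genes and 46.9% for other genes.

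More than 1 IDR summit fell in the windows of 10 genes. In RpL37A, RpS18 and RpS23 both summits lay nearer to the own start site than to that of another protein-coding gene. They lay at 10 and 210 bp, 15 and 128 bp, and 75 and −466 bp. In RpL13A, RpL26, RpS5a, RpS28b and RpLP0-like the second summit lay farther upstream and nearer to a neighbour, at −1263 bp (60 bp from Dph4), −716 bp (134 bp from CG3902), −908 bp (141 bp from Chchd2), −782 bp (91 bp from l(1)G0320) and −1334 bp (112 bp from 14-3-3zeta). RpS25 had a second summit at −230 bp, 18 bp from the start site of CG4820. That of RpS14b, at −1139 bp, was the promoter summit of its tandem copy RpS14a.

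No IDR summit was found in the windows of 27 genes. A relaxed pooled summit was present for 19 of the 27 (70.4%), a share near the 68.5% of all protein-coding genes and above the 62% of other genes without an IDR summit. Within 500 bp of an own start site such a summit was present for 18 of the 27 (66.7%), against 45.3% of all protein-coding genes and 36.8% of other genes without an IDR summit. For 18 of the 19 the strongest pooled summit lay that close, and over the 19 it lay at a median absolute distance of 83 bp. Their pooled ranks ran from 3132 to 26560 with a median of 7290. RpL15 was the strongest, at pooled rank 3132 and 5437, 2244 and 3408 in the replicates. RpL40, which encodes a ribosomal protein fused to ubiquitin, stood at 3364 and ranked 3867, 3966 and 4179. RpS3 stood at 3660 and ranked 5528, 1398 and 19603. The group thus starts just past the end of the IDR list at rank 2919.

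The others of the 19 included RpS2, RpS9, RpS30, RpL5, RpS5b, RpS28a, RpL6, RpL7-like, RpS13, RpL29, RpS10a, RpL24-like, RpL38, RpS15Ab and RpL9. The weakest pooled summits were those of RpS15Ab (20569) and RpL9 (26560). RpS15Ab ranked 22122, 9932 and 26625 in the replicates. RpL9 ranked 508 and 741 in replicates 1 and 2, at 34 and 41 bp downstream of its start site, and had no relaxed summit in its window in replicate 3. Its only pooled summit lay 753 bp upstream.

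No pooled summit fell in the windows of 8 genes. Of these, RpS3A, the only member on chromosome 4, had a summit at 1 bp in replicate 1 alone, at rank 499. RpL10 had one at 4 bp in replicate 1 alone, at rank 3886, and RpL22-like one at rank 27669 in replicate 3 alone. The remaining 5, RpL10Aa, RpL21, RpL37-2, RpS24 and RpS28-like, had no summit in any list. The pooled summit nearest to the start site lay 646 bp from it for RpS28-like, outside the window, 1077 bp for RpS24, 3285 bp for RpL37-2, 5562 bp for RpL10Aa and 72491 bp for RpL21. Absence from these lists is not absence of binding, since the read depth is unknown.

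Duplicated and related genes differed within their sets. The 13 sets were listed by hand from gene symbols, copies and -like genes together, and hold 27 of the members. Of these 27 genes, 17 carried an IDR summit. That compares with 48 of 65 genes outside the sets (73.8%). Every set had 1 carrier or more, 4 sets had a summit at each gene, and 9 had one at some genes only. Several of the weaker copies, RpL22-like, RpS5b, RpS19b and RpS10a among them, are known from Drosophila gonads. Reads of near-identical copies may be assigned to either or to none, and how the authors treated them is not given.

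In the large subunit, RpL7 had pooled rank 81, and its relative RpL7-like 8819 with replicate ranks of 22797, 3520 and 4143. RpL22 stood at 623 and ranked 1178, 367 and 575, while RpL22-like had no pooled summit. RpL24 stood at 195, and RpL24-like, whose yeast counterpart is a ribosome assembly factor, at 12119 (6859 and 4995 in replicates 1 and 2, and none in replicate 3). In these sets the standard gene ranked ahead of its relative in every replicate where both had a summit. RpL10Ab stood at 1796 and ranked 3529, 1882 and 1308, and RpL37-1 at 2317 and ranked 3634, 2257 and 1697. Their copies RpL10Aa and RpL37-2 had no summit in any list.

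The sets with a summit at each gene were RpL34a with RpL34b, RpLP0 with RpLP0-like, RpS14a with RpS14b and RpS19a with RpS19b. RpL34a stood at rank 319 (285, 586 and 295 in the replicates) and RpL34b at 442 (493, 458 and 481). RpLP0-like, whose yeast counterpart acts in ribosome assembly, stood at 2414 and ranked 3475, 1244 and 2718. RpS14b stood at 1946 and ranked 1391, 931 and 4202. RpS19a stood at 390 and ranked 554, 329 and 365. In replicates 1 and 3 the windows of RpS14a and RpS14b, which overlap, had the same strongest summit, so those ranks are 1 measurement and not 2.

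In the small subunit, RpS5a stood at 485 and ranked 596, 598 and 382, while RpS5b stood at pooled rank 6632 and ranked 5909, 11461 and 8592. RpS10a stood at pooled rank 10458 and ranked 9990 and 19530 in replicates 1 and 3, far behind RpS10b. RpS15Aa stood at 919 and ranked 2037, 840 and 589, ahead of RpS15Ab in every replicate. RpS28b stood at 267 and ranked 440, 157 and 272, while RpS28a stood at 7193 and ranked 22109 and 3880 in replicates 1 and 2. Past the end of the short RpS28a gene (304 bp) lay an IDR summit of rank 957, at 480 bp from the RpS28a start site and 53 bp from that of Mgat2. Leading summits of all 3 replicates stood there too, at ranks 1390, 699 and 1371, and 484 to 496 bp from the RpS28a start site.

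**Figure D4:**
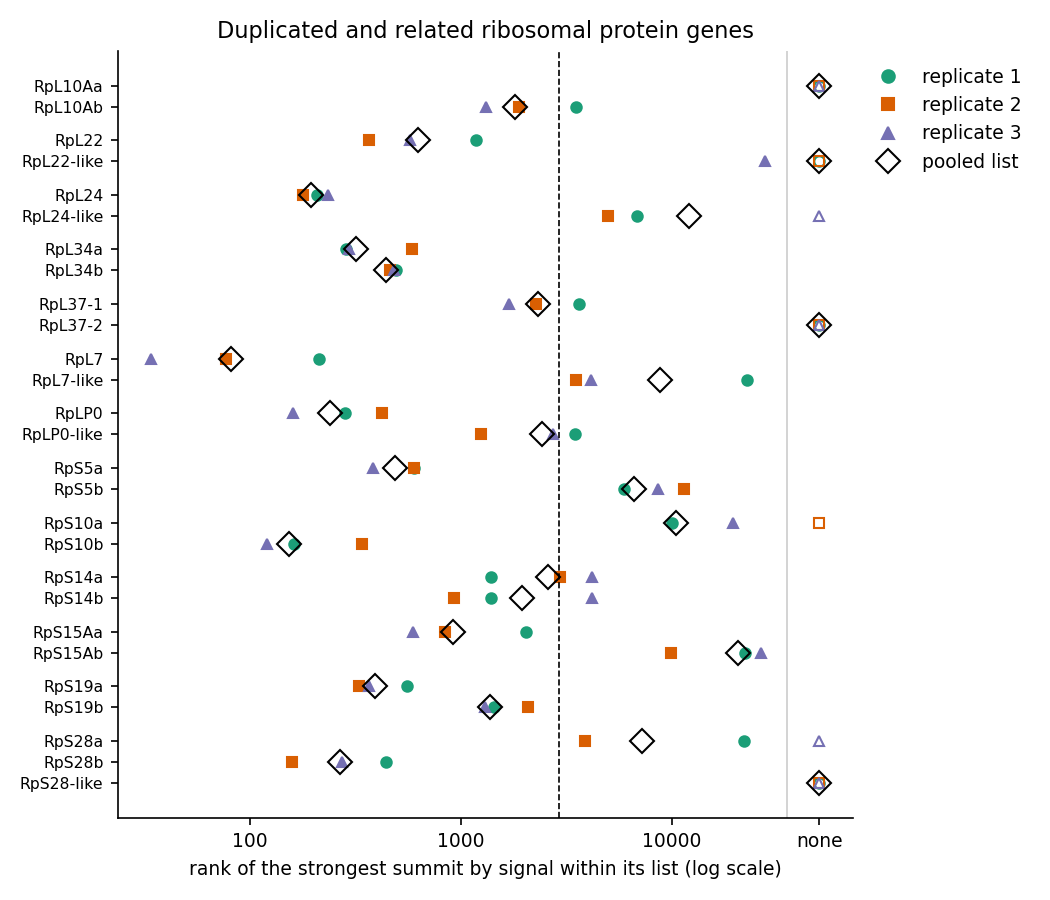
Rank of the strongest summit by signal (log scale, strong to the left) for the 27 genes of the 13 duplicated or related sets, in the pooled list (open diamonds) and replicates 1 to 3 (filled symbols); symbols at the far right are genes with no summit in that list. The dashed line marks rank 2919, which 17 of the 27 pooled symbols reach.

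Start-site sequence differed among the members. The TCT initiator shown above stood at a start site of 73 of the 92 genes (79.3%), against 2.46% of all protein-coding genes. It was present at 56 of the 65 genes with an IDR summit (86.2%) and at 17 of the 27 without one (63%). Among the genes without a summit it stood at 14 of 17 single-copy genes (82.4%) and at 3 of 10 genes of the duplicated sets (30%). Read the other way, 76.7% of the 73 ribosomal protein genes with the initiator carried an IDR summit, and 47.4% of the 19 without it. Of the 270 other protein-coding genes with the initiator, 29.6% carried one, and 16.3% of the genes with neither.

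With a summit required within 50 bp of the start site, ribosomal protein genes with and without the initiator stood farther apart, while other genes did not. Such a summit was present at 46 of the 73 ribosomal protein genes with the initiator and at 2 of the 19 without it. In other genes it was present at 7 of the 270 with the initiator (2.59%) and at 1.48% of those without it. These splits are counts of genes in 1 IDR list, and the split by initiator was chosen after the data had been seen.

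The forkhead word was rare at these summits. It was searched on both strands within 50 bp of a summit, as GTAAACA, with the variants GTAAATA as well as ATAAACA and also ATAAATA counted alike. It was found at 4 of the 65 strongest summits (6.15%), among them those of RpL34b, RpS15 and RpS27A. It was found at 26.4% of the 1051 other IDR summits within 500 bp of any annotated protein-coding start site, called other promoter summits here. Of the 194 such summits within 50 bp of a start site, 19.6% held the word. GTAAACA itself was found at 0 of the 65, which allows a share of up to 4.62% (3 counts, counting error only), against 7.42% of the 1051. A match is only a match of letters and says nothing of occupancy.

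Examples of the word are shown in capitals, each on the strand that holds it, with the distance from the summit to the word counted along the plus strand.
RpS27A (chr2L:10408271-10408300, plus strand, −31 bp from the summit): tagttcaaaatATAAACAaaagtaaactcc
RpL34b (chr3R:9401331-9401360, minus strand, 11 bp from the summit): ttctaacaaaaaATAAATAatttgcaaccc

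In the replicates the forkhead word was at 8.15% ± 2.68 of the strongest leading summits of ribosomal protein genes and 24.9% ± 2.07 of the other leading promoter summits (SD, n = 3). The difference was −16.7 ± 2.04 percentage points and negative in 3 of 3 replicates (exact two-sided sign-flip p = 0.25, the smallest possible). Against other summits within 50 bp of a start site, at 18.1% ± 3.83, the difference was −9.92 ± 2.87. In windows of the same width centred 500 bp to either side of the IDR summits, the word was at 16.2% for ribosomal protein genes and 15.7% for other promoter summits. Base composition also differed between some of these sets. The windows were 45.7% G and C for ribosomal protein genes, against 39.8% for other promoter summits and 45% for those within 50 bp of a start site, and its part in the result was not tested. With the window widened to 100 bp the word was at 20% of the ribosomal protein summits, against 40.4% and 30.4% of both sets of other summits.

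The word ATCGAT, the core of the DNA replication-related element TATCGATA (DRE), was more frequent. On both strands within 50 bp, it was found at 12 of the 65 summits (18.5%), against 4% of other promoter summits and 10.3% of those within 50 bp of a start site. The full element, which contains the core, was at 9 of the 65 (13.8%), against 1.43% of other promoter summits. It was not counted at other summits within 50 bp of a start site. The ribosomal protein genes with the full element included RpL10Ab, RpL19, RpL27, RpL34a, RpL41, RpS12, RpS25 and RpS29. In the windows 500 bp to either side of the ribosomal protein summits the core was at 3.85%. Among leading peaks of the replicates the core was at 17% ± 4.36 of ribosomal protein summits and 4.13% ± 0.239 of other promoter summits (SD, n = 3). It was higher at the ribosomal protein summits in 3 of 3 replicates (exact two-sided sign-flip p = 0.25). Against other summits within 50 bp of a start site, at 9.36% ± 1.28, the difference was smaller, 7.67 ± 4.43 percentage points, and positive in 3 of 3 replicates.

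Sites of the full element near the summits of strong and weak carriers are shown on the gene's strand with the element in capitals, and with the distance from the summit to the centre of the element, negative being upstream.
RpS25 (chr3R:11216328-11216357, minus strand, −26 bp from the summit, IDR rank 179): ccaccaccaacTATCGATAggcaggcgagc
RpL34a (chr3R:26059292-26059321, minus strand, 13 bp from the summit, IDR rank 319): tgttttgaaatTATCGATAgcaattaatat
RpL27 (chr3R:25685073-25685102, minus strand, −25 bp from the summit, IDR rank 775): ttgccactaagTATCGATAaaaagacgacg
RpS29 (chr3R:9778046-9778075, plus strand, −9 bp from the summit, IDR rank 1176): atcgtggaaaaTATCGATActgccaccccc
RpL10Ab (chr3L:11822763-11822792, plus strand, −47 bp from the summit, IDR rank 1796): ctattaatgaaTATCGATAtatattcgcac

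**Figure D5:**
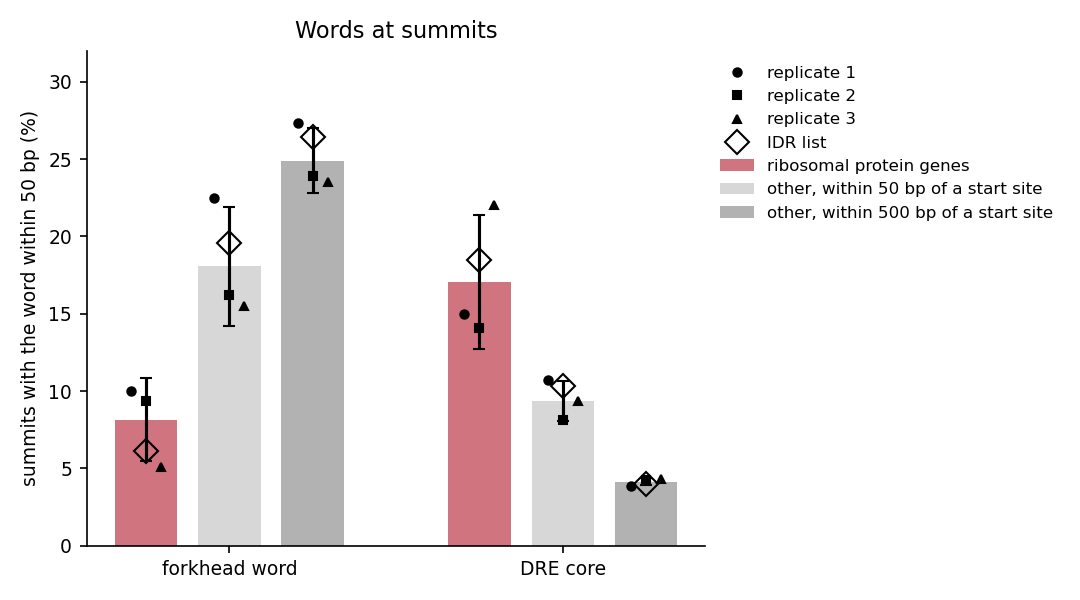
Share of summits (%) with a forkhead word or the DRE core within 50 bp, for the strongest summits of ribosomal protein genes, other promoter summits and other summits within 50 bp of a start site; bars are means over 3 replicates with SD, filled symbols single replicates and open diamonds the IDR list. The forkhead word is at 8.15% of ribosomal protein summits and 24.9% of other promoter summits, and the DRE core at 17% and 4.13%. At other summits within 50 bp of a start site these words are at 18.1% and 9.36%.

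The promoters as a whole showed part of this. From 250 bp upstream to 50 bp downstream of the start site, on both strands, the full DRE stood in 30.4% of the 92 promoters, against 8.95% of all protein-coding genes, and its core in 42.4%, against 22.7%. The forkhead word stood in 35.9%, against 45.9%. The word GGTCACACT, bound by the factor M1BP, stood in 9.78%, against 5.87%. CACGTG, an E-box of the kind bound by Myc, stood in 13%, against 4.29%, and TATAAA in 45.7%, against 45.3%. GAGAG, bound by the GAGA factor, stood in 17.4%, against 30.3%. Among the ribosomal protein genes, the forkhead word stood in 26 of 65 promoters with an IDR summit (40%) and 7 of 27 without (25.9%). GTAAACA alone went the other way, at 2 of the 65 (3.08%) and 3 of the 27 (11.1%). The DRE core stood in 43.1% of the 65 and 40.7% of the 27. TATAAA can share letters with forkhead words that start with ATAAA, as in the RpS27A site shown above.

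Within 50 bp of the 65 summits, GGTCACACT stood at 4 (6.15%), against 0.761% of other promoter summits, and CACGTG at 5 (7.69%), against 1.33%. TATAAA stood at 3 (4.62%), against 15.9%, and GAGAG at 4 (6.15%), against 16.7%. These counts are small, and other promoter summits lay farther from start sites and were poorer in G and C. For these words, other summits within 50 bp of a start site were not counted. RpL7 and RpS4 were among the summits with CACGTG, and RpLP0, RpLP1, RpL27A and RpL37A made up those with GGTCACACT.

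By chromosome arm, IDR summits stood at 14 of 14 ribosomal protein genes on X, 11 of 14 on 3L, 15 of 23 on 3R, 14 of 21 on 2R, 11 of 19 on 2L and 0 of 1 on 4. Leading peaks of replicates 1, 2 and 3 stood at 12, 12 and 11 of the 14 genes on X and at 10, 13 and 10 of the 14 on 3L, so X was not ahead in every replicate. Over all genes the share with an IDR summit was 15.9% on X and 1.25% on 4, and between 16.5% and 18.4% on the other arms. Many ribosomal protein genes hold small nucleolar RNAs, which guide modification of ribosomal RNA, in their introns. Such RNAs lay inside 28 of the 92 genes, and 23 of those 28 carried an IDR summit, against 65 of all 92 (70.7%). The lengths of the 28 genes, on which the search window depends, were not compared. RpS5a held 14 of these RNAs and RpS7 held 7.

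Other genes of translation were described in the same IDR list. Of 7 elongation factor genes, 4 carried a summit. eEF1gamma stood at rank 93 with its summit at 0 bp, eEF2, the translocation factor, at 967 and 34 bp, and eEF5 at 1335 and 23 bp. The stronger of the 2 IDR summits of eEF1alpha1, which brings aminoacyl-tRNA to the ribosome, stood at rank 224 and lay 1198 bp upstream. Within 500 bp of an own start site, 4 of the 7 elongation factor genes had an IDR summit. Of 4 genes listed here as ribosome-associated, 3 carried a summit within 50 bp of the start site. These were Rack1 (rank 264, 26 bp), Nacalpha (504, −3 bp) and sta (1409, 18 bp). Members were chosen by symbol, so a ribosomal protein gene named otherwise would fall outside them and could be among these 4 genes. Of 13 genes for ribosome production in the nucleolus, 2 carried one, Ns2 (rank 502) and Surf6 (rank 1493). The mitochondrial ribosomal protein genes, which serve the organelle's own ribosome, carried an IDR summit in 11 of 73 cases (15.1%), close to the 16.9% of all genes.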

How the data were processed

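The deposited peak lists of 3 biological replicates are narrowPeak files on dm6. The labels give sonication to 200 to 800 bp. Which aligner, peak caller and IDR threshold the authors used is not given in the sources used here. Signal as deposited ranked peaks inside each list, and the deposited −log10 q-value served for counts at q under 0.05. All 3 replicates and their pool were called against 1 input, per the deposited file descriptions, so an error in that input touches every list. Read depth is unknown, and 0 per-sample columns were left unused.

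Summits were placed on Ensembl release 115 genes of the 6 arms and on the NCBI sequence of genome release 6. Distances use the nearest of a gene's own annotated start sites. Start sites of other genes were those of protein-coding genes only. The 92 genes, the gene lists and the words were chosen with earlier results of these data known. The comparison with other summits within 50 bp of a start site, the wider window for other summits and the split by initiator were added after seeing the data. Replicate ranks are given for the 12 strongest genes, the duplicated sets, the 3 weakest carriers, the 3 strongest and 3 weakest non-carriers with a pooled summit, the 3 widest rank ratios and the genes with a distant summit. A few members that this rule names are counted in every total but not reported singly here. The only test was an exact two-sided sign-flip over 3 replicates, with 8 arrangements. Assignment of summits and words was tested on simulated data. The software was Python 3.11.15 with pandas 2.3.3, NumPy 2.4.6 and SciPy 1.17.1, and matplotlib 3.10.9 drew the plots.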

Additional observations from a re-analysis of the deposited data

How the results depend on the processing

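Of 60 alternatives, 39 kept their value within the spread of replicates, or within 1.5 times for counts, and 21 moved. Some of the 39 could hardly have moved. The mean over 3 replicates cannot move past their SD when 1 of them is left out. Pooled peaks with q under 0.05 numbered 2784, as did IDR peaks under it, so they were nearly the reported list. Taking only the stronger 1459 peaks of the IDR list, the share of ribosomal protein genes with a summit was 56.5%, against 70.7% as reported, with 63% for the large and 47.4% for the small subunit. Requiring the own start site to be nearest gave 66.3%. Without 1 replicate, counting genes with a leading peak in both that remained, the shares were 56.5% to 60.9% for all, 63% to 70.4% for the large and 47.4% to 55.3% for the small subunit. Replicate peaks with q under 0.05 gave a mean of 70.3%. The median distance was 4 bp from canonical start sites. Summits at an own start site made up 100% within 1000 bp and 98.1% in the stronger 1459 peaks. The forkhead word was at 20% of summits within 100 bp and at 0% for GTAAACA alone, and at 7.23% to 9.69% without 1 replicate. The cause of these moves was not tested, beyond the shorter lists and narrower or wider rules themselves. No paired analysis was possible because there is 1 group.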

Other observations

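RpL9 and RpS3A had strong peaks at their start sites in single replicates that the pooled list did not hold. RpL9, a large-subunit gene, ranked 508 and 741 in replicates 1 and 2, at 34 and 41 bp from its start site. The nearest relaxed summit lay 4091 bp away in replicate 3 and 753 bp away in the pooled list. RpS3A, a small-subunit gene, ranked 499 in replicate 1 at 1 bp, while the nearest summit lay 315133 bp away in the pooled list. Of 1194 genes with a leading peak at an own start site in 2 or more replicates, 9 lacked a pooled relaxed summit there, and RpL9 was the only ribosomal protein gene among them. With a leading peak in 1 or more replicates, 48 of 1995 genes lacked one, of which 2 were ribosomal protein genes.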
